A study of Rattus norvegicus with 4 samples.

Results

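The 10 genes described here are core members of the circadian clock, namely Arntl, Clock, Per1, Per2, Per3, Cry1, Cry2, Nr1d1, Nr1d2 and Dbp. They were taken by symbol from the 54532 genes of the count table, and each symbol matched 1 row. RNA-seq was run on ear skin from 2 Sprague Dawley rats, taken at day 3 from the sites injected with an AAV vector. AAV stands for adeno-associated virus, which is used to deliver genes to cells. In each rat 1 ear received AAV-Fgf7, labelled as Fgf7 overexpression, and the other ear received AAV-control, labelled wt. Each group thus held 2 libraries, and each rat gave 2. The sources used here do not give the age or sex of the rats, the promoter of the virus or the hour at which tissue was taken. The titles place AAV-Fgf7 in the right ear, whereas the design text places it in the left, so side was not used. The ears were compared within each rat, the AAV-Fgf7 ears were compared with the control ears, and both ears of rat 2 were compared with both ears of rat 1.

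Nearly every cell runs a transcriptional clock with a period of about a day. The proteins BMAL1 (gene Arntl) and CLOCK form a dimer that binds E-box sequences and drives the Per and Cry genes, whose proteins accumulate and then block the dimer. In an interlocked loop, the nuclear receptors REV-ERB-alpha and REV-ERB-beta (genes Nr1d1 and Nr1d2) repress Arntl through ROR elements, and the activator DBP acts on D-box sequences of other clock genes. In skin the clock runs in keratinocytes, fibroblasts and hair follicles, where division and barrier genes follow it. Per1 can also be induced within the hour by signals that induce immediate early genes.

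Total counts were 1417294 and 1433247 in the AAV-Fgf7 libraries of rats 2 and 1, and 1601321 and 1299136 in the control libraries. A low-count filter left 6370 genes, and 9 of the 10 clock genes passed it. Fgf7, read as a check of the labels, had 1429 and 454 counts in the AAV-Fgf7 ears of rats 2 and 1, against 110 and 94 in their control ears. Markers of ear tissues differed between libraries. Summed CPM (counts scaled to a common library size with TMM factors) of the skeletal muscle list, 15 of 16 with a count, was 14684 and 30234 in the AAV-Fgf7 ears of rats 2 and 1, against 56889 and 13958 in the control ears. Basal keratinocyte genes, 8 of 8 with a count, summed to 3129 and 1490 CPM in AAV-Fgf7 ears, against 958 and 1135 CPM in control ears. Hair follicle genes, 10 of 12 with a count, summed to 158 and 3963 CPM in AAV-Fgf7 ears, against 1215 and 60.7 CPM in control ears. In such bulk tissue, fewer cells of a type and less RNA per cell cannot be told apart. Of the suprabasal list 5 of 9 genes, Flg and Ivl among them, and of the fibroblast list Dcn and Lum, had no count in any library. Counts of these rat samples are listed under mouse gene identifiers, and a lack of counts does not show absence. The rat number of an AAV-Fgf7 library rests on the number in its column name, because both AAV-Fgf7 descriptions name the same column. Some transcripts followed these numbers in both ears. The ribosomal protein gene Rps9 had 4 and 6 counts in the AAV-Fgf7 and control ears of rat 2, against 156 and 116 in those of rat 1, and Rpl36a had 129 and 157, against 0 and 0. Both genes, named here after their values were seen, have near-identical copies elsewhere in the genome, and their counts are uncertain. They stood among the genes of lowest p between the rats as numbered, so they do not check the numbering.

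The promoters of 3 clock genes are shown because Per1 and Per2 stood on opposite sides between the rats and Arntl varied least. They are RefSeq rat sequences of build GRCr8, each 250 bases before to 50 after a listed start, and 9 of the 10 genes had an entry. Capitals mark a D-box (TTATGNAA) and an E-box variant (CACGTT) in Per2 and 2 ROR elements (AAGTAGGTTA, then AAGTAGGTCA) in Arntl, which were searched with any base allowed at the third letter.
Per1, chr10:54304126-54304425, plus strand: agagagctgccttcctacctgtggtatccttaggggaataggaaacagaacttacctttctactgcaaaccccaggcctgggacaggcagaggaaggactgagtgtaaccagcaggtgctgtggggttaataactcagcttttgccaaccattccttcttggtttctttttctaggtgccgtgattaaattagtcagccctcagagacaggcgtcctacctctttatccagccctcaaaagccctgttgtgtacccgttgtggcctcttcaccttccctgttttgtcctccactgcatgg
Per2, chr9:99496944-99497243, minus strand: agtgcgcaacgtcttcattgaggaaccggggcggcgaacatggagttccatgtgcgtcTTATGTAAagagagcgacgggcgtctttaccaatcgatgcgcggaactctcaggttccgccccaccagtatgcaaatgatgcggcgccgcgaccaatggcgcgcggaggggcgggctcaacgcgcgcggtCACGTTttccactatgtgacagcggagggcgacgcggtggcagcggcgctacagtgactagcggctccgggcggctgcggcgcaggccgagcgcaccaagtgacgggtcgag
Arntl, chr1:176766078-176766377, plus strand: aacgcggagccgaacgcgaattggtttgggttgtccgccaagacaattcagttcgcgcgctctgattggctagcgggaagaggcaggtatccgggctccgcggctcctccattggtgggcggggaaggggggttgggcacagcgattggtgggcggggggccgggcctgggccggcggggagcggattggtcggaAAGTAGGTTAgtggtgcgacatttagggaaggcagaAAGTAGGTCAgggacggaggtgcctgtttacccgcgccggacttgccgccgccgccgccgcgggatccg

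Motifs were searched on both strands, and none overlapped another. Of all 33469 promoter windows in the table, 3.66% held the D-box and 4.83% held CACGTT. The canonical E-box CACGTG was held by 6.42%, and the cyclic AMP response element TGACGTCA by 1.83%. The ROR elements were rarer, with the canonical form, that ending in TCA, in 0.245% and the form ending in TTA in 0.128% of windows. In the Arntl window they lie at bases 196 to 205 and 232 to 241, counted from its 5′ end. In the Per2 window the D-box lies at bases 59 to 66 and CACGTT at 189 to 194. The printed Per1 window holds none of these motifs. Sequence outside the windows was not searched, so this does not show that Per1 lacks them. Of the other members, CACGTT was found on the opposite strand in the Cry2 window and in 1 of the Nr1d1 windows, and CACGTG was found in another Nr1d1 window. These matches describe the sequence and do not show that a factor was bound.

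Levels of different genes were compared per length, by the authors' FPKM (counts per kilobase of listed gene length and library size). Dbp led, with a mean of 46.6 ± 6.91 FPKM over the 4 libraries (SD). Cry2 followed at 24.2 ± 7.43 and Arntl at 15.8 ± 0.884 FPKM, and their ranges over the libraries overlapped. Nr1d1 stood at 6.91 ± 2.23, Per1 at 6.83 ± 2.88, Clock at 6.17 ± 1.06 and Nr1d2 at 4.90 ± 1.08 FPKM. Neighbours among these 4 overlapped, and all 4 lay below every library's value of Arntl. Cry1 averaged 2.70 ± 1.21 and Per2 2.47 ± 0.880 FPKM, again with overlap, and Per3 came last at 0.0729 ± 0.0846 FPKM. How completely each rat transcript was counted under its mouse identifier was not tested.

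**Figure D1:**
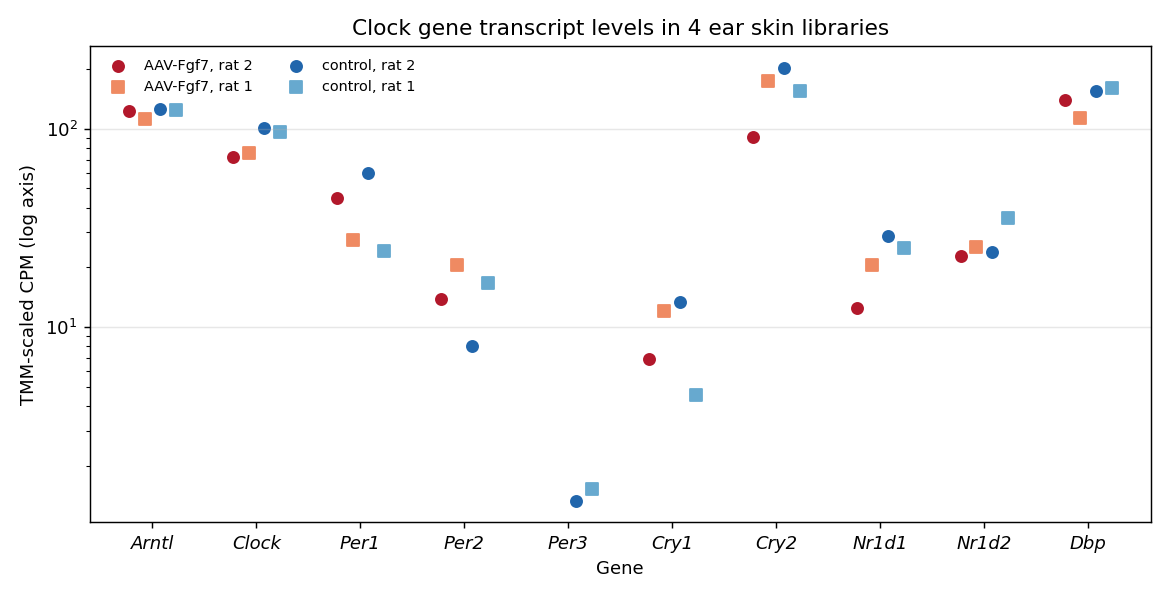
CPM of each clock gene (log axis) in the 4 ear libraries, with AAV-Fgf7 in red tones, control in blue tones, rat 2 as circles and rat 1 as squares. The 4 points of Arntl lie between 112 and 126 CPM, while both circles of Per1 lie above both squares; Per3 had 0 counts in both AAV-Fgf7 libraries, which are not drawn.

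No clock gene passed the edgeR test of AAV-Fgf7 against control (adjusted p = 0.9996 for each of the 9), and 0% of all tested genes did. Of the 9 tested, 7 had a lower estimate in AAV-Fgf7 ears and 2 (Per2 and Cry1) a higher one. Their median log2 fold change was -0.30, beside -0.02 over all 6370 genes. Both AAV-Fgf7 libraries lay below both controls for Arntl, Clock, Nr1d1 and Dbp, and above both for none, where 13.3% and 14.8% of all tested genes did so, or 28.1% in either direction. With scaling by library totals alone, Arntl overlapped and the count was 3. At an unadjusted p under 0.05 there were 0 clock genes by edgeR, against 2.32% of all genes, and DESeq2 and limma-voom called no clock gene. Over all genes DESeq2 called 4 and limma-voom 0. Of the 8 basal keratinocyte markers, 7 were higher in the AAV-Fgf7 ear than in the control ear in rat 2 and 4 in rat 1, with Krt5, Krt14 and Trp63 higher in both, and their part in these values was not tested.

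The activator pair showed unlike spreads. Arntl (ENSMUSG00000055116, mouse chromosome 7, 113207465 to 113314126, plus strand) is given, like all gene coordinates here, on a mouse build that was not named. It had 177 counts in the AAV-Fgf7 ear and 190 in the control ear of rat 2, while rat 1 had 158 in its AAV-Fgf7 ear and 163 in its control ear. On the CPM scale these were 122.5 and 126 in rat 2, and 112 and 124 in rat 1. All values lay within 1.13-fold of each other, and the log2 fold change for AAV-Fgf7 was -0.10 (SE 0.20, edgeR adjusted p = 0.9996). Only 3.38% of tested genes had a narrower range of log2 CPM over the 4 libraries, and 3.26% of the 889 genes of like abundance. Clock (ENSMUSG00000029238, mouse chromosome 5, 76209868 to 76304792, minus strand) had 72.0 CPM in the AAV-Fgf7 ear and 101 in the control ear of rat 2, while rat 1 had 75.6 in its AAV-Fgf7 ear and 96.4 CPM in its control ear. Both AAV-Fgf7 ears were thus below both controls, by close amounts in each rat. The ratio between the ears was 0.712 in rat 2 (95% counting interval 0.549 to 0.919). In rat 1 it was 0.784 (0.600 to 1.02), within counting error. Clock averaged 73.8 ± 2.52 CPM in AAV-Fgf7 ears and 98.8 ± 3.35 CPM in control ears (SD, n = 2 each), a log2 fold change of -0.42 (SE 0.23) with edgeR adjusted p = 0.9996. A processed pseudogene, Ube2n-ps1, lies within Clock on the same strand in the listed coordinates and shares 459 bases with it. Ube2n-ps1 had 161 and 115 counts in the AAV-Fgf7 and control ears of rat 2. Rat 1 had 161 in its AAV-Fgf7 ear and 320 in its control ear. How reads in the shared stretch were assigned was not tested.

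Dbp (ENSMUSG00000059824, mouse chromosome 7, 45705088 to 45710203, plus strand), the D-box activator gene, lay lower in AAV-Fgf7 ears, with 141 CPM in the AAV-Fgf7 ear and 154 in the control ear of rat 2, while rat 1 had 114 in its AAV-Fgf7 ear and 160 CPM in its control ear. The raw counts were 203 and 232 in rat 2, and 161 and 211 in rat 1. The groups did not overlap, but the step in rat 2 was within counting error, with a ratio of 0.910 (95% interval 0.750 to 1.10), whereas that in rat 1 was 0.710 (0.574 to 0.875). Its log2 fold change was -0.31 (SE 0.21, edgeR adjusted p = 0.9996). Of the related D-box activators, Tef stood at -0.40 (SE 0.29) and Hlf at -0.60 (SE 0.41) on the log2 scale. Tef overlapped between the groups and Hlf did not.

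Nr1d1 (ENSMUSG00000020889, mouse chromosome 11, 98767932 to 98775333, minus strand), the REV-ERB-alpha repressor gene, had 18 counts in the AAV-Fgf7 ear and 43 in the control ear of rat 2, while rat 1 had 29 in its AAV-Fgf7 ear and 33 in its control ear. It averaged 16.5 ± 5.67 CPM in AAV-Fgf7 ears and 26.8 ± 2.52 CPM in control ears (SD, n = 2 each). The groups did not overlap, and the log2 fold change of -0.70 (SE 0.40, edgeR adjusted p = 0.9996) ran from -1.10 to -0.39 with 1 library left out. In the listed coordinates it shares 1075 bases with Thra, a thyroid hormone receptor gene on the opposite strand. Thra had 449 and 757 counts in the AAV-Fgf7 and control ears of rat 2, while rat 1 had 692 in its AAV-Fgf7 ear and 453 in its control ear. The strand setting of the counting was not stated in the labels, so reads of the pair in the shared stretch cannot be told apart. The paralogue Nr1d2 (ENSMUSG00000021775, mouse chromosome 14, 18204054 to 18239127, minus strand) had 22.8 CPM in the AAV-Fgf7 ear and 24.0 in the control ear of rat 2, while rat 1 had 25.4 in its AAV-Fgf7 ear and 35.7 CPM in its control ear. Its groups overlapped, with a log2 fold change of -0.30 (SE 0.36).

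**Figure D2:**
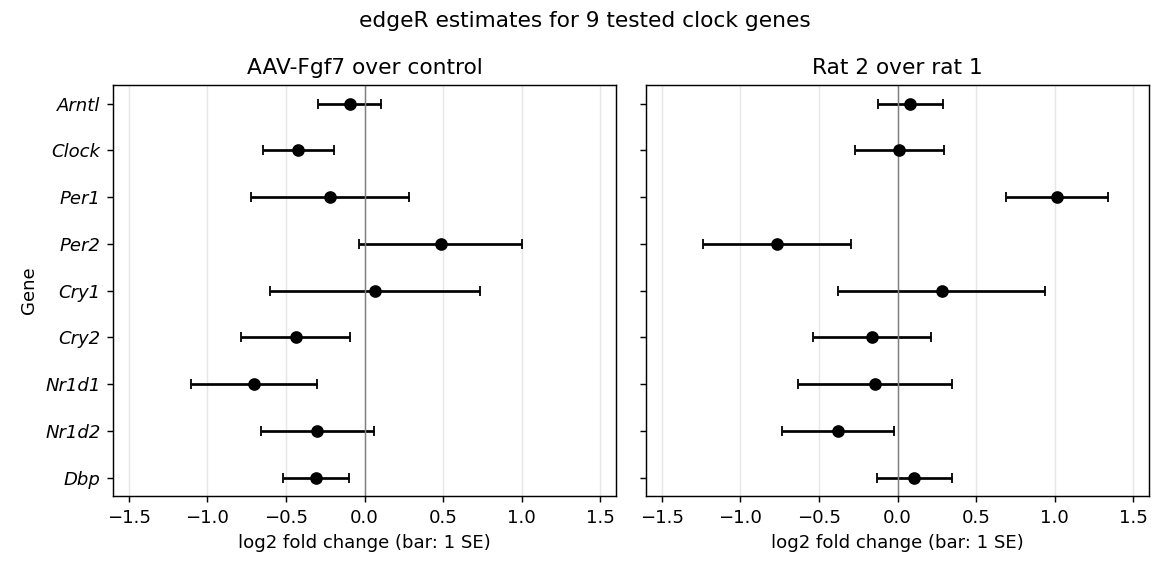
log2 fold changes of the 9 tested clock genes by edgeR, with bars of 1 SE, for AAV-Fgf7 over control (left panel) and rat 2 over rat 1 (right panel). In the left panel 7 points lie below 0, from -0.70 for Nr1d1, and in the right panel Per1 lies at 1.01 and Per2 at -0.77.

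Cry2 differed between the ears of rat 2 and not beyond counting error in rat 1. Cry2 (ENSMUSG00000068742, mouse chromosome 2, 92403646 to 92434043, minus strand), a gene of the repressor arm, had 131 counts in the AAV-Fgf7 ear and 306 in the control ear of rat 2, while rat 1 had 247 in its AAV-Fgf7 ear and 205 in its control ear. The ratio between the ears was 0.445 in rat 2 (95% interval 0.360 to 0.548) and 1.12 in rat 1 (0.927 to 1.36). The AAV-Fgf7 ear of rat 2 was therefore low and the other 3 libraries lay between 156 and 204 CPM, so the groups overlapped. The log2 fold change was -0.44 (SE 0.35, edgeR adjusted p = 0.9996), and -0.043 without the AAV-Fgf7 library of rat 2. Summed markers of muscle, cartilage, hair follicle, fibroblasts and adipocytes were also lower in the AAV-Fgf7 ear of rat 2 than in its control ear. In rat 1 they were higher in the AAV-Fgf7 ear. Summed markers of keratinocytes, endothelial cells and macrophages did not follow this pattern. Not every member followed its sum. Acta1 alone gave 38607 of the 56889 CPM of muscle in the control ear of rat 2. Tnnc1, also of muscle, was lower in the AAV-Fgf7 ear of both rats. Of the 5 tested fibroblast genes, 1 lay above and 1 below both controls in both AAV-Fgf7 ears. The part of these tissues in Cry2 was not tested. Cry1 (ENSMUSG00000020038, mouse chromosome 10, 85131700 to 85185064, minus strand), its paralogue, likewise had opposite steps, with 10 counts in the AAV-Fgf7 ear and 20 in the control ear of rat 2, while rat 1 had 17 in its AAV-Fgf7 ear and 6 in its control ear. Its intervals, 0.217 to 1.16 in rat 2 and 0.991 to 8.16 in rat 1, each included a ratio of 1. The log2 fold change of Cry1 was 0.06 (SE 0.67). Set against rat 1, rat 2 had a Cry2 ratio of 0.520 between the AAV-Fgf7 ears (0.417 to 0.645) and 1.31 between the control ears (1.09 to 1.57), and for Cry1 these were 0.577 (0.236 to 1.33) and 2.92 (1.13 to 8.89). In all, the interval left out 1 for 3 of 9 genes in rat 2 (Clock, Cry2 and Nr1d1) and for 1 in rat 1 (Dbp), where it did so for 39.8% of all tested genes in rat 2 and 28.6% in rat 1. Steps beyond counting error were thus no more frequent among the clock genes than among all tested genes, which were not matched for abundance. These intervals hold counting error only, and reads without molecular identifiers are not independent molecules.

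**Figure D3:**
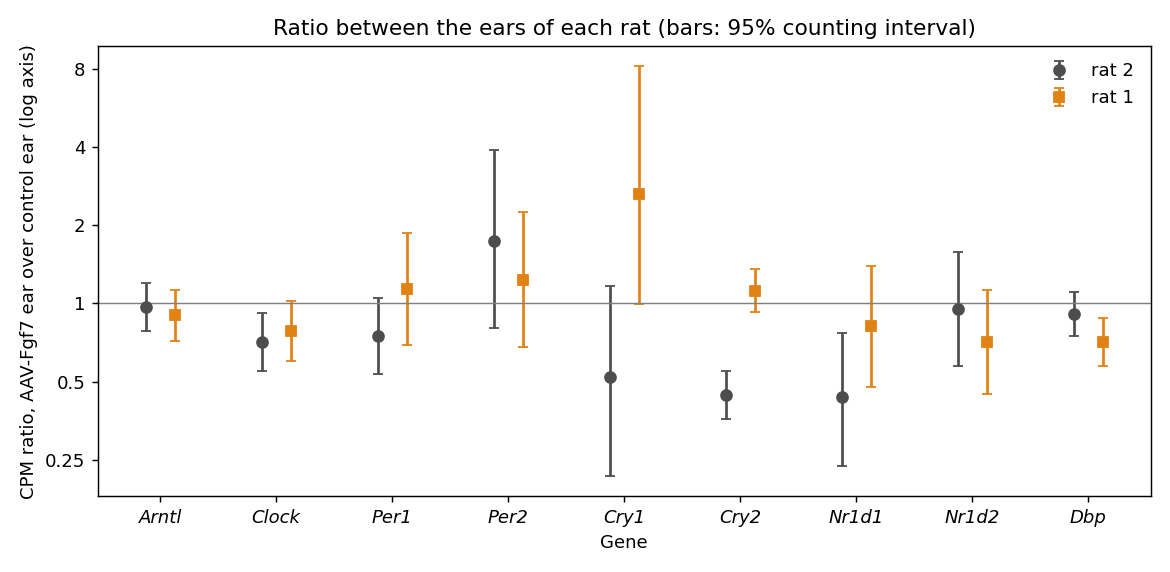
Ratio of CPM between the AAV-Fgf7 ear and the control ear of rat 2 (circles) and rat 1 (squares) for each tested clock gene, on a log axis, with 95% exact counting intervals. Arntl lies near 1 in both rats at 0.969 and 0.902, and Cry2 lies at 0.445 in rat 2 and 1.12 in rat 1.

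Between the rats, Per1 was the clock gene with both ears of rat 2 above both ears of rat 1. Per1 (ENSMUSG00000020893, mouse chromosome 11, 69095217 to 69109960, plus strand) had 65 counts in the AAV-Fgf7 ear and 90 in the control ear of rat 2, while rat 1 had 39 in its AAV-Fgf7 ear and 32 in its control ear. It averaged 52.5 ± 10.5 CPM in rat 2 and 25.9 ± 2.29 CPM in rat 1 (SD over the 2 ears of each). The ears did not overlap. The ratio of rat 2 to rat 1 was 1.63 between the AAV-Fgf7 ears (95% interval 1.08 to 2.50) and 2.47 between the control ears (1.63 to 3.82). The log2 fold change was 1.01 (SE 0.32), and the edgeR adjusted p = 0.9992 over all tested genes, so Per1 did not pass. Before adjustment its edgeR p was 0.0180. The test compares 2 animals through their ears and says nothing of other rats. At an unadjusted p under 0.05 stood 2.31% of all tested genes, and 1 of the 9 clock genes. Between treatments Per1 overlapped, at 36.3 ± 12.3 CPM in AAV-Fgf7 ears and 42.1 ± 25.2 CPM in control ears.

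Per2, the other main PER repressor gene, stood the other way. Per2 (ENSMUSG00000055866, mouse chromosome 1, 91415982 to 91459324, minus strand) had 20 counts in the AAV-Fgf7 ear and 12 in the control ear of rat 2, while rat 1 had 29 in its AAV-Fgf7 ear and 22 in its control ear. Both ears of rat 2 were below both of rat 1, at 10.9 ± 4.14 CPM in rat 2 and 18.6 ± 2.67 CPM in rat 1 (SD over the 2 ears of each). The log2 fold change of rat 2 over rat 1 was -0.77 (SE 0.47, edgeR adjusted p = 0.9992). Within a library, which needs no scaling, the ratio of Per1 to Per2 counts was 3.25 and 7.50 in the AAV-Fgf7 and control ears of rat 2, against 1.34 and 1.45 in those of rat 1. With 12 to 29 counts, Per2 was limited by depth. Between treatments it overlapped, with a log2 fold change of 0.48 (SE 0.52). Per3 (ENSMUSG00000028957, mouse chromosome 4, 151003652 to 151044665, minus strand), the third paralogue, had 0 counts in both AAV-Fgf7 ears and 2 in each control ear, and was not tested. A count of 0 allows up to 2.08 and 2.12 CPM in the AAV-Fgf7 ears of rats 2 and 1. In the listed coordinates Per3 lies within Camta1 on the same strand, so its few counts are uncertain.

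The other clock genes gave smaller estimates between the rats. Nr1d2 lay below in both ears of rat 2, at 23.4 ± 0.787 CPM in rat 2 and 30.6 ± 7.26 CPM in rat 1 (SD over the 2 ears of each), with a log2 fold change of -0.38 (SE 0.36). The estimates of rat 2 over rat 1 ran from -0.16 to 0.28 for the remaining 6 genes, which all overlapped. In all 1 clock gene lay above and 2 below in both ears of rat 2, where 13.7% and 13.6% of all tested genes did. Over the 6370 genes, edgeR called 5 between the rats, or 0.0785% (0.0314% higher and 0.0471% lower in rat 2), and 0 with treatment as a term. None was a clock gene in either fit.

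Immediate early genes, whose transcripts respond to stimuli within minutes, were read beside Per1. Of 19 listed, 14 were tested, and 6 of these (Fosb, Egr1, Nr4a2, Jun, Junb and Zfp36) lay above in both ears of rat 2, with 1 (Egr3) below, beside 13.7% above and 13.6% below of all tested genes (27.3% in either direction). Zfp36 did so by little, at 47.3 CPM in the control ear of rat 2 against 47.1 in that of rat 1. With scaling by library totals alone it overlapped. Egr3 lay below by as little, at 108.0 CPM in the AAV-Fgf7 ear of rat 2 against 108.6 in the control ear of rat 1. Jun, Junb, Zfp36 and Egr3 are named after their values were seen. Egr1 had 189 CPM in the AAV-Fgf7 ear and 477 in the control ear of rat 2, while rat 1 had 132 in its AAV-Fgf7 ear and 103 in its control ear. Its mean was 333 ± 204 CPM in rat 2 and 118 ± 20.4 CPM in rat 1 (SD over the 2 ears of each), with edgeR adjusted p = 0.9992. Fosb had 24.9 and 311 CPM in rat 2, and 14.1 and 15.2 in rat 1, with a log2 fold change of 3.52 (SE 1.08, edgeR adjusted p = 0.9992). Nr4a2 stood at 1.14 (SE 0.38). The list's median was 0.17, beside 0.00 over all genes, and no member passed the adjusted threshold. Fosb, Egr1, Nr4a2 and Jun were highest in the control ear of rat 2, as was Per1, whereas Junb and Zfp36 were highest in its AAV-Fgf7 ear. Fos itself lay at 0.01 (SE 0.35) and overlapped between the rats. Between treatments the lowest p-values of the list were those of Fosb, Fos and Nr4a2, with log2 fold changes of -3.06 (SE 1.23), -0.57 (SE 0.26) and -0.82 (SE 0.49). The list's median between treatments was -0.05. The relation of these genes to Per1 was not tested.

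**Figure D4:**
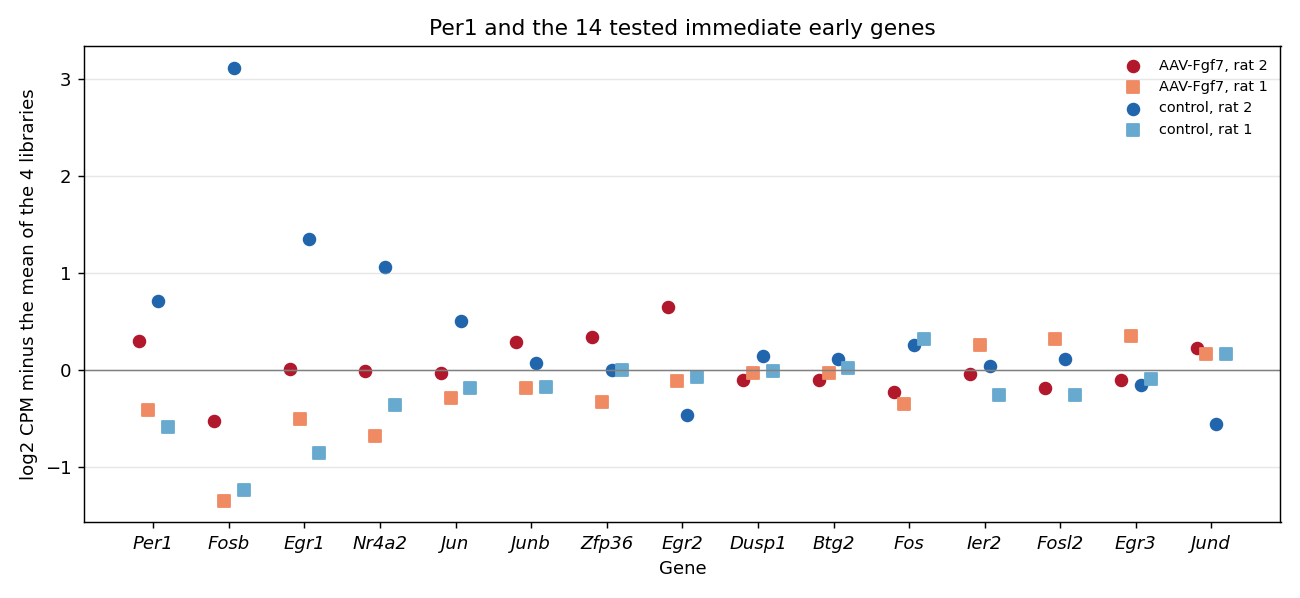
log2 CPM minus the mean of the 4 libraries for Per1 and the 14 tested immediate early genes, ordered by the estimate of rat 2 over rat 1, with AAV-Fgf7 in red tones, control in blue tones, rat 2 as circles and rat 1 as squares. Both circles lie above both squares for Per1 and for the next 6 genes, and Fosb in the control ear of rat 2, at 311 CPM, stands farthest out. The control points of Zfp36 differ little, at 47.3 and 47.1 CPM in rats 2 and 1.

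Per1 is also known as a target of the glucocorticoid receptor. Of the list of other genes that this hormone induces, 6 of 12 were tested. Ddit4, an inhibitor of the growth kinase mTOR, had 99.0 CPM in the AAV-Fgf7 ear and 186 in the control ear of rat 2, while rat 1 had 90.4 in its AAV-Fgf7 ear and 66.1 in its control ear. Its log2 fold change was 0.87 (SE 0.35, edgeR adjusted p = 0.9992). Errfi1 stood at 1.37 (SE 0.60) and Nfkbia at 0.49 (SE 0.26), and these 3 lay above in both ears of rat 2, while Zbtb16 lay below and Klf9 and Tsc22d3 (-0.14, SE 0.46) overlapped. Of all tested genes, 13.7% lay above and 13.6% below. Fkbp5 and Mt2, commonly used readouts of the hormone, and Pdk4 had no count in any library. Under mouse identifiers this does not show that they were absent. The median of the tested members between the rats was 0.32, and 0 passed the adjusted threshold. Between treatments, Klf9 stood at -0.49 (SE 0.31), Errfi1 at -0.95 (SE 0.69) and Zbtb16 at -0.71 (SE 0.60), and all 3 overlapped. Tsc22d3 stood at 0.31 (SE 0.43) and was the 1 member that did not overlap, with both AAV-Fgf7 ears above both controls. It is named after its values were seen. The list's median was -0.45. The part of the hormone in the values of Per1 was not tested.

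Of the 27 further clock genes, 24 had a count and 19 were tested, and none passed in either comparison. Between treatments, both AAV-Fgf7 values of 4 genes exceeded both control values and those of 2 lay under both, near the 14.8% and 13.3% of all tested genes. The 4 were the activator Npas2, a partner of BMAL1 that can replace CLOCK, the kinase genes Csnk1d and Csnk1e, which mark PER proteins for decay, and Nono, which encodes a PER-binding protein. Npas2 had 15 counts in the AAV-Fgf7 ear and 8 in the control ear of rat 2, while rat 1 had 17 in its AAV-Fgf7 ear and 8 in its control ear. Its log2 fold change was 0.97 (SE 0.51, edgeR adjusted p = 0.9996). The counting interval of its ratio between the ears included 1 in both rats (0.776 to 5.31 in rat 2 and 0.808 to 5.29 in rat 1). Its estimate was above 0 and that of Clock below, and the relation of Npas2 to Clock was not tested. Csnk1e stood at 0.50 (SE 0.34), Nono at 0.33 (SE 0.21) and Csnk1d at 0.10 (SE 0.17). The step of Csnk1d in rat 1 was within counting error, with a ratio between the ears of 1.02 (95% interval 0.946 to 1.10). With scaling by library totals alone Csnk1d overlapped. Hlf and the E-box repressor Bhlhe40 (-0.39, SE 0.30) lay below. The median over the 19 was 0.06. Rora, an ROR activator gene whose product opposes the REV-ERB receptors, overlapped at 0.25 (SE 0.35).

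Between the rats, Rora lay above in both ears of rat 2, with a log2 fold change of 0.51 (SE 0.30). The ratio of rat 2 to rat 1 was 1.89 between the AAV-Fgf7 ears (95% interval 1.43 to 2.50). Between the control ears it was 1.03 (0.772 to 1.38), within counting error, and with scaling by library totals alone Rora overlapped. Tef, Gsk3b, Sfpq, Ncor1 and Sirt1 lay below. Of all tested genes, 13.7% lay above and 13.6% below, or 27.3% in either direction. Sirt1, a deacetylase that acts on BMAL1 and PER2, stood at -0.61 (SE 0.31), the corepressor gene Ncor1 at -0.42 (SE 0.21) and Tef at -0.42 (SE 0.29). The kinase gene Gsk3b stood at -0.26 (SE 0.21) and Sfpq at -0.18 (SE 0.18). The other 13 tested genes of the list overlapped, Csnk1e at -0.45 (SE 0.35) and Usp2, a deubiquitinase gene, at 0.36 among them. The median over the 19 was -0.06.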

How the data were processed

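The authors deposited raw counts per gene and FPKM values. Each deposited FPKM value was in proportion to count over listed gene length within a library. Per the submitters' processing notes the build was Rnor_6.0 (rn6), but all identifiers are of mouse. Aligner, counter, strand setting and mouse build were not given in the sources used here. Libraries, per the labels' protocols, were made by poly(A) selection or ribosomal RNA depletion, without saying which.

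Genes were filtered with filterByExpr of edgeR 4.0.16 (R 4.3.3), which kept 6370 of 12902 genes with a count and 98.9% of all counts. AAV-Fgf7 against control and rat 2 against rat 1 were each tested with the two-sided edgeR quasi-likelihood test after TMM scaling, with Benjamini-Hochberg adjustment over all tested genes at 0.05. SE is the log2 fold change over the root of F. Ratios between 2 libraries carry exact (Clopper-Pearson) 95% intervals. An exact permutation test of 1 gene cannot go below p = 0.333 here and was not used. The biological coefficient of variation was 29.1% between treatments. The ears of a rat share its number in the titles, so numbers pair libraries by animal, although same-numbered libraries deviated from their group means with r = -0.30 over genes. No source says that libraries came from separate extractions, and p-values measure the spread between these libraries. Alternatives used RLE factors, library totals, other filters, DESeq2 1.42.0, limma 3.58.1 (voom, and log2 of FPKM plus 1 or 0.1), each library left out and a rat block. The test was also run on simulated counts, with the same spread for all genes and no difference between rats beside a planted one. The planted changes were larger than any estimate of a clock gene here. Its power for changes of that smaller size was therefore not tested.

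The clock genes and all lists were chosen with earlier results of these data known. Named were all 10 clock genes, the further clock genes that were tested, up to 3 of lowest p per comparison in the immediate early and glucocorticoid lists, Fgf7, and the 5 genes most like the clock gene of widest range. Some genes that this rule names are not reported here.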

Additional observations from a re-analysis of the deposited data

Results flagged for a closer look

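For 3 of the 9 tested clock genes the ears differed in opposite directions in the rats, and that difference between rats was not tested, since each rat gives 1 pair of ears. Of all tested genes, 59.2% did so. The log2 ratio of AAV-Fgf7 over control was -1.17 in rat 2 and 0.16 in rat 1 for Cry2, -0.94 in rat 2 and 1.40 in rat 1 for Cry1, and -0.41 in rat 2 and 0.18 in rat 1 for Per1. The counting interval left out a ratio of 1 in neither rat for Cry1 and Per1, and in rat 2 alone for Cry2.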

How the results depend on the processing

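No clock gene was called in either comparison under any alternative. With rat as a replicate block edgeR again called 0 genes between treatments (75 at an unadjusted p under 0.05), and the block changed no call on a clock gene. With the rat numbers crossed, chosen after seeing the data, it called 0 between treatments with the crossed block and 4 between the crossed numbers. At an unadjusted edgeR p under 0.05 stood 301 genes with the crossed block, against 75 with the block as numbered. Between the crossed numbers there were 792, against 147 between the rats as numbered. Which numbering is right was not tested. Between treatments the count of called genes was 3 without the filter and 4 by DESeq2, and from 0 to 19 with 1 library left out (19 without the control of rat 1). Between the rats it was 5, against 23 without the filter, 8 by DESeq2, 0 by limma-voom, 2 by log2(FPKM + 1) without the filter and 0 with treatment as a term, and from 1 to 5 with 1 library left out (1 without the control of rat 2, 2 without AAV-Fgf7 of rat 2). Libraries were left out with the tested genes kept, and a lone library is then assumed to vary like the other group. Of all pairs of a clock gene and an alternative, 5 turned in sign between treatments and 10 between the rats. With 1 library left out, the log2 fold change between treatments ran from -0.72 to 0.58 for Per1 (0.10 without AAV-Fgf7 of rat 1), from -0.49 to 1.04 for Cry1 (-0.37 without AAV-Fgf7 of rat 1) and from -0.56 to 0.010 for Nr1d2. With no turn in sign it ran from -0.98 to -0.043 for Cry2 (-0.44 with all), from 0.039 to 1.09 for Per2 (0.48) and from -1.10 to -0.39 for Nr1d1 (-0.70). Between the rats it ran from -0.25 to 0.24 for Clock, from -0.26 to 1.14 for Cry1, from -0.86 to 0.30 for Cry2, from -0.86 to 0.33 for Nr1d1 and from -0.12 to 0.38 for Dbp. Clock stood at -0.032 with library totals and at -0.00071 on log2(FPKM + 0.1). The cause was not tested. Per1 between the rats ran from 0.80 to 1.20 over 14 alternatives, with unadjusted p-values from 0.0124 to 0.0965 by edgeR, DESeq2 or limma, and 3 of the 4 fits with a library left out were above 0.05. Depth limits Cry1, Per2 and Per3 most, at mean counts of 13.2, 20.8 and 1.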

Other observations

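The clock gene of widest range was Cry1, and the tested genes closest to it in centred log2 CPM over the 4 libraries included Slc12a4, Slc35e3, Atrnl1 and Efr3b, at root mean square distances of 0.043 to 0.069. With 4 libraries and few counts, 1986 genes lay within 0.5 of Cry1, so the likeness singles out none of them.

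Ratios of counts within a library need no scaling. The ratio of Dbp to Arntl counts was 1.15 and 1.22 in the AAV-Fgf7 and control ears of rat 2, while rat 1 had 1.02 in its AAV-Fgf7 ear and 1.29 in its control ear. The ratio of Nr1d1 to Arntl counts was 0.102 and 0.226 in rat 2, and 0.184 and 0.202 in rat 1. The ratio of Clock to Arntl counts was 0.588 and 0.800 in rat 2, and 0.677 and 0.779 in rat 1. Over the 4 libraries the highest ratio was 1.27 times the lowest for Dbp, 2.23 times for Nr1d1 and 1.36 times for Clock.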
